A study of Mus musculus with 6 samples.

Results

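Glycolysis and the hypoxia-inducible factor (HIF) pathway were followed in cultured mouse CD8+ effector T cells (Teff) through 40 genes, 20 for enzymes of glycolysis and its control and 20 for the HIF factors, their regulators and their targets. The genes were taken from a list of symbols, and all 40 were present in each library among the 34745 genes of the deposited table. RNA-seq was done on 3 WT and 3 Scd-1-/- Teff libraries. Spleen CD8+ T cells were stimulated with 5 μg/mL anti-CD3 and 0.5 μg/mL anti-CD28 for 3 days with 100 U/mL IL-2, then kept in IL-2 until harvest on day 6, and this treatment was the same for both groups. The Scd-1-/- mice were B6.129-Scd1tm1Ntam/J, which lack Scd-1 in every cell, and the WT mice were purchased C57BL/6J. Both were young adult males by the methods of the study. The 2 groups were therefore not described as littermates, and loss of Scd-1, a flanking 129-derived segment and the colony cannot be told apart. The comparison asked how gene expression differed between WT Teff and Teff without Scd-1, a stearoyl-CoA desaturase that makes oleic and palmitoleic acid.

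Glycolysis turns glucose into pyruvate and lactate, and activated CD8+ T cells raise it strongly when they divide and make effector molecules. HIF is a heterodimer whose alpha subunit (Hif1a or Epas1) is hydroxylated by the prolyl hydroxylases Egln1, Egln2 and Egln3 when oxygen is present, bound by Vhl and degraded. Stable HIF binds a short core motif near its targets, among them most glycolytic enzymes and, as a feedback, Egln3 and Egln1 themselves, and in T cells it is also raised by antigen receptor and IL-2 signals.

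The promoters below were chosen from members described further on whose promoter holds the HIF core motif. Ak4, Pgam1 and Kdm3a had such promoters too and are not shown, and Ldha differed little between genotypes. A link between the motif and the differences was not tested. The sequences are RefSeq windows of 250 bases directly upstream of an annotated start (GRCm38.p6), printed 5′ to 3′ on the strand of the gene, with ACGTG or GCGTG in capitals, or CACGT or CACGC where the motif is on the other strand. Egln3 had the largest difference between genotypes among members that were lower in Scd-1-/-, Hk2 and P4ha2 differed between replicate numbers in opposite directions, Pdk1 fell in the paired fit, and Ldha held the most matches of the windows shown.
Egln3, minus strand, chr12:54203875-54204124: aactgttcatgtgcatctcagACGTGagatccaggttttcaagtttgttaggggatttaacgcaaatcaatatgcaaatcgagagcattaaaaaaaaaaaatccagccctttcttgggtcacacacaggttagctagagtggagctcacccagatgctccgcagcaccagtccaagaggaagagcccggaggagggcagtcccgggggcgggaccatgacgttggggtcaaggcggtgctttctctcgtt
Hk2, minus strand, chr6:82774455-82774704: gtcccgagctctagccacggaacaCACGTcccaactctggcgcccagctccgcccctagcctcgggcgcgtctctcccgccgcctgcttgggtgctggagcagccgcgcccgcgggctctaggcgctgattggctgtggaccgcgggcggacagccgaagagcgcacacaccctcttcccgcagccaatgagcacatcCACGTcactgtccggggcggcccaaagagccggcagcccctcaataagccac
Pdk1, plus strand, chr2:71872974-71873223: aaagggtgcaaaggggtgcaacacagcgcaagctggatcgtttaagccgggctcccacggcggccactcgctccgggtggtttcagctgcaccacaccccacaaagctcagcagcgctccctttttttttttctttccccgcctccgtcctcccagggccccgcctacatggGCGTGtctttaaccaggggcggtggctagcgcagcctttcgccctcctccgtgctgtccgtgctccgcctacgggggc
Ldha, plus strand, chr7:46845554-46845803: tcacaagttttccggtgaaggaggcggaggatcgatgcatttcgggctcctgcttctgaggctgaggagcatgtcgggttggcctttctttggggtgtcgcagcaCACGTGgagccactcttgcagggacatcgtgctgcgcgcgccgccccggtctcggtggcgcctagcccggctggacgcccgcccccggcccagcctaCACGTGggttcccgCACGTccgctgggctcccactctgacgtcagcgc
P4ha2, plus strand, chr11:54100674-54100923: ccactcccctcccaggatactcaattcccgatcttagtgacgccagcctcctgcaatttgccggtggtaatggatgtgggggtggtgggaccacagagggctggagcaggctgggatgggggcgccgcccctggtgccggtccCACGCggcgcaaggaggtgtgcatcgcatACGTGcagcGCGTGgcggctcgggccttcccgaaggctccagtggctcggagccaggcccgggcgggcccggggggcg
The palindrome CACGTG holds the motif on both strands, so the Ldha window had 5 matches in 3 stretches. The Egln3 and Pdk1 windows had 1 match each, the Hk2 window 2 and the P4ha2 window 3. At least 1 window with a match was found for 31 of the 37 members that had a promoter entry (83.8%), against 41.5% of 27025 genes with an entry. The share was 17 of 20 for the glycolytic enzymes and 14 of 17 for the HIF pathway genes, and Epas1, Bnip3l and Ndrg1 had no entry. Eno2, Gpi1, Tpi1, Gbe1, Gys1 and Vhl had no match in any window. Genes can have several windows, and counted by window the share was 74.6% of 59 for members and 38.6% of 32851 for all genes. Pdk1 and Ldha each had another window, with 0 and 1 matches. A match is only a run of letters, and no binding was measured.

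Total counts were 14034479 to 15866216 per library. Scd1 was at 45.3 to 58.2 FPKM in WT and at 0.261 to 0.528 FPKM in Scd-1-/- libraries. In a principal component analysis, the first component (44.2% of variance) set the WT and Scd-1-/- replicate 1 apart from the other 4 libraries, and the second (36.2%) parted the genotypes. Same-numbered WT and Scd-1-/- libraries deviated together from their group means, with r = 0.618, 0.324 and 0.493 over genes for numbers 1, 2 and 3. Numbers 2 and 3 were not told apart by this, since WT replicate 3 had r = 0.422 with Scd-1-/- replicate 2, above the value of the matched pair 2, and WT replicate 2 had r = 0.190 with Scd-1-/- replicate 3. The labels do not say what a number stands for, and so a fit with the number as a block is given beside the fit without it, together with the difference in each same-numbered pair. T cell markers were high in all libraries, and the B cell markers Ms4a1 and Pax5, the macrophage marker Adgre1 and the erythroid markers Alas2 and Hbb-bs were listed at 0 throughout. Summed FPKM of 5 NK markers (Ncr1, Klrb1c, Eomes, Tyrobp, Fcer1g), some of which activated CD8+ T cells also express, was 11.2 to 19.4 in WT and 41.7 to 121 in Scd-1-/-, while the NK receptor Ncr1 itself was at 0 to 0.221 FPKM. Of the 4 of them that were tested, Eomes passed an adjusted p of 0.05 without the block and all 4 did with it, all higher in Scd-1-/- (edgeR quasi-likelihood, Benjamini-Hochberg), although Klrb1c reached the minimum of 1 FPKM only through Scd-1-/-. Mitochondrial transcripts took 1.66 to 1.78% of counts in WT and 2.25 to 3.20% in Scd-1-/-. Summed FPKM of 6 CD8+ T cell markers was 1885 to 2379 in WT and 1837 to 2108 in Scd-1-/-. All 6 had a log2 fold change below 0 and none was called with or without the block, but Cd8a (-0.46) did not overlap between genotypes, and Cd8a and Cd8b1 fell in replicates 2 and 3 alone (adjusted p = 0.0166 and 0.0382, by the same edgeR test). The CD4+ T cell, erythroid and platelet lists summed to at most 0.672 FPKM. The B cell list was at 9.41 to 10.7 FPKM in WT and 3.13 to 7.99 FPKM in Scd-1-/-, nearly all of it Cd79b, which was lower with the block (adjusted p = 0.387 without and 0.0434 with it, edgeR quasi-likelihood, Benjamini-Hochberg). The myeloid list was at 0.374 to 1.11 and 1.88 to 2.24 FPKM, and the dendritic list at 0.524 to 2.72 and 1.92 to 8.21 FPKM, mostly Itgax, which was higher with the block (adjusted p = 0.529 without and 0.00591 with it, by the same edgeR test). The NK, myeloid, B cell and mitochondrial values did not overlap between genotypes, and nor did the CD4+ T cell and platelet sums, which were near the floor. The CD8+ T cell, dendritic and erythroid sums overlapped. The part of any of these in the results below was not tested. In such bulk libraries, fewer cells with a transcript and less of it per cell cannot be told apart.

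Glycolytic transcripts were abundant in both genotypes and lower in the Scd-1-/- libraries of replicates 2 and 3. Summed over the 20 enzymes, they reached 9070, 8461 and 8215 FPKM in WT replicates 1, 2 and 3, and 8865, 6527 and 6439 FPKM in Scd-1-/- replicates 1, 2 and 3. The Scd-1-/- replicate 1 lay inside the WT range, so the groups overlapped. These are transcript levels, and flux through glycolysis was not measured in these libraries. In its metabolic assay of cultured Teff, the study reported higher glycolysis without Scd-1, so lower transcripts here are not read as lower flux. Of the 18 enzymes that reached a mean of 1 FPKM and were tested, 18 had a log2 fold change below 0, with a median of -0.33, where 50.1% of all 9627 genes tested were below 0. None passed an adjusted p of 0.05 (edgeR quasi-likelihood, Benjamini-Hochberg), nor a log2 fold change of at least 1 with p under 0.001, the thresholds of the study. Over all genes, 0.114% passed the adjusted p, and 0.499% (higher) and 0.239% (lower) passed the thresholds of the study. At an unadjusted p under 0.05, 1 enzyme was lower and none higher, beside 4.68% and 5.42% of all genes.

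**Figure D1:**
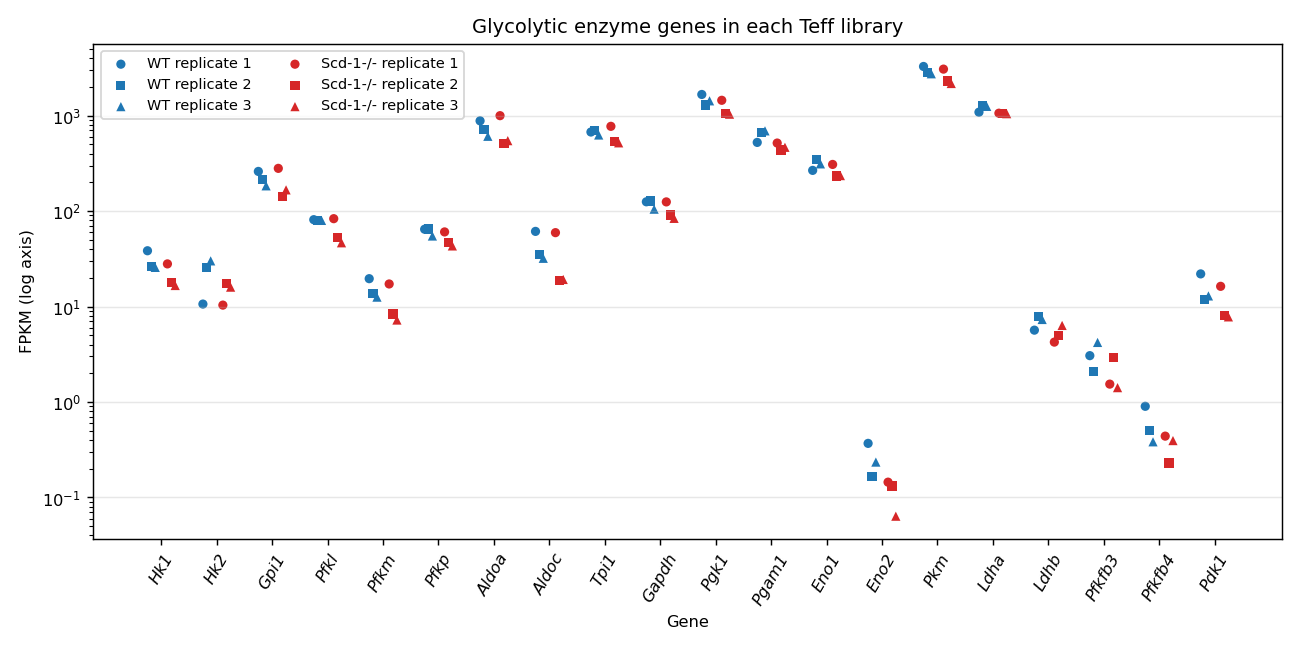
FPKM of the 20 glycolytic genes in each of the 6 libraries, on a log axis, with WT in blue, Scd-1-/- in red and the replicate number by marker shape. Replicate 1 of Scd-1-/- (red circles) lies with the WT libraries for most enzymes, and the lowest values are mostly Scd-1-/- replicates 2 and 3.

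At the entry of the pathway, Hk1, which traps glucose as glucose 6-phosphate, was at 38.4, 26.1 and 25.7 FPKM in WT and at 28.0, 17.7 and 16.6 FPKM in Scd-1-/- replicates 1, 2 and 3. Each Scd-1-/- library was below the WT library of the same number, although Scd-1-/- replicate 1 was above WT replicates 2 and 3. The log2 fold change was -0.51 ± 0.26 (SE), with an adjusted p of 0.563 without the block and 0.0216 with it (edgeR quasi-likelihood, Benjamini-Hochberg). Hk1 therefore fell in the fit that pairs the libraries by number and not in the one that does not. Its isozyme Hk2, the form that T cells induce on activation, was at 10.6, 25.5 and 30.1 FPKM in WT and at 10.4, 17.4 and 15.97 FPKM in Scd-1-/-. The groups overlapped and replicate 1 was the lowest library of each genotype. The Hk2 log2 fold change was -0.57 ± 0.36 (SE), adjusted p = 0.666 (edgeR quasi-likelihood, Benjamini-Hochberg).

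Pdk1, which inactivates pyruvate dehydrogenase and so keeps pyruvate out of the mitochondrion, was the other glycolytic gene that fell in the paired fit. It was at 22.0, 11.97 and 12.9 FPKM in WT and at 16.3, 8.02 and 7.80 FPKM in Scd-1-/-. As with Hk1, each pair had the lower value in Scd-1-/-, and replicate 1 was the highest library of each genotype. Its log2 fold change was -0.53 ± 0.36 (SE), with an adjusted p of 0.688 without and 0.0252 with the block (edgeR quasi-likelihood, Benjamini-Hochberg). With the block, 2 of the 18 enzymes thus fell and none rose, where 2.06% of all genes fell and 2.64% rose.

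The 3 phosphofructokinase genes, for the committed step of the pathway, had log2 fold changes of -0.38 (Pfkl), -0.47 (Pfkm) and -0.27 (Pfkp). Pfkl was at 81.3, 80.1 and 79.9 FPKM in WT and at 83.3, 52.9 and 46.6 FPKM in Scd-1-/-. Replicates 2 and 3 of Scd-1-/- were below all WT libraries, and replicate 1 was above them. Pfkfb3, whose product makes the activator of phosphofructokinase, was low and varied widely, at 3.06, 2.08 and 4.21 FPKM in WT and at 1.54, 2.94 and 1.42 FPKM in Scd-1-/-. Eno2 and Pfkfb4 stayed under the minimum of 1 FPKM and were not tested. Their levels were 0.166 to 0.369 and 0.383 to 0.902 FPKM in WT, and 0.0637 to 0.145 and 0.230 to 0.439 FPKM in Scd-1-/-.

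Among the tested enzymes of the lower pathway, the groups did not overlap for Pgam1 and Ldha. Pgam1, phosphoglycerate mutase, was at 524, 666 and 693 FPKM in WT and at 516, 437 and 466 FPKM in Scd-1-/-. The replicate 1 libraries were close to each other, and the gap came from replicates 2 and 3. Its log2 fold change was -0.38 ± 0.14 (SE), with an adjusted p of 0.404 (edgeR quasi-likelihood, Benjamini-Hochberg). Pgam1 lies on chr19:41911923-41918660, 2.48 Mb from Scd1, and the intronless copy Pgam1-ps2, identical over the 765 bases aligned, took 11.8% of their joint counts. Ldha, which turns pyruvate into lactate, was at 1088, 1283 and 1251 FPKM in WT and at 1061, 1045 and 1048 FPKM in Scd-1-/-. Its 3 Scd-1-/- libraries were nearly equal and just below WT replicate 1, and the log2 fold change was -0.17 ± 0.11 (SE), adjusted p = 0.647 (edgeR quasi-likelihood, Benjamini-Hochberg). Over all genes, the groups did not overlap with Scd-1-/- lower in 7.60% and with Scd-1-/- higher in 8.42% on CPM scaled by the TMM factors, and over the 38 members tested this held for 5 and 0. On FPKM it held for 8.32% and 7.67% of all genes and for 6 and 0 of the members, the added one being Vhl, whose groups only just overlapped on the other scale.

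For the other tested enzymes of this stretch, and for Gpi1 of the upper pathway, the groups overlapped. Pkm, pyruvate kinase and the most abundant member, was at 2745 to 3275 FPKM in WT and at 2172 to 3072 FPKM in Scd-1-/-. Aldoa, Tpi1, Gapdh, Pgk1, Eno1 and Gpi1 had log2 fold changes from -0.29 (Pgk1) to -0.07 (Aldoa), and Aldoc and Ldhb had -0.38 and -0.40. The Aldoc value was -0.00158 without WT replicate 1 and -1.16 without Scd-1-/- replicate 1. Reads of Eno1 cannot be fully told from those of Eno1b, a gene 99.5% identical to it that took 19.9% of their joint counts, and Gapdh, Gpi1, Tpi1 and Pgk1 also have near-identical copies, which took at most 7.91% of the joint counts.

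In the HIF pathway, the prolyl hydroxylase Egln3 had the largest difference among the genes that were lower in Scd-1-/-. Egln3 (chr12:54178981-54203860, minus strand) was at 81.8, 180 and 173 FPKM in WT replicates 1, 2 and 3 and at 75.0, 55.0 and 52.1 FPKM in Scd-1-/- replicates 1, 2 and 3. The groups did not overlap, but the replicate 1 libraries of both genotypes lay next to each other and WT replicates 2 and 3 stood far above the rest. The pair differences were -0.13, -1.70 and -1.66 (log2). The log2 fold change over all libraries was -1.22 ± 0.30 (SE), with an adjusted p of 0.203 without and 0.0602 with the block (edgeR quasi-likelihood, Benjamini-Hochberg). In replicates 2 and 3 alone it was -1.68, adjusted p = 3.41e-05 (edgeR quasi-likelihood, Benjamini-Hochberg), and DESeq2 on all libraries gave an adjusted p of 0.00516. The call for Egln3 therefore turned on replicate 1 and on the test. Within each genotype, replicates 2 and 3 were the most alike libraries, so the p-value from them alone reflects a narrow spread.

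The other oxygen sensors and Hif1a had smaller differences. Egln1, the main HIF hydroxylase in most tissues, was at 71.6, 52.5 and 56.3 FPKM in WT and at 69.6, 43.0 and 43.3 FPKM in Scd-1-/-. Egln2 was at 19.3 to 22.0 FPKM in WT and at 15.5 to 19.3 FPKM in Scd-1-/-, so the groups only just parted. Vhl, the substrate receptor of the ubiquitin ligase, was at 13.7, 12.8 and 11.7 FPKM in WT and at 8.91, 11.4 and 10.6 FPKM in Scd-1-/-. Their log2 fold changes were -0.19, -0.20 and -0.29. Hif1a, the alpha subunit that leads in T cells, was at 23.1, 16.1 and 20.6 FPKM in WT and at 16.7, 16.7 and 15.9 FPKM in Scd-1-/-. The groups overlapped, with a log2 fold change of -0.25 ± 0.16 (SE). Epas1, the alternative alpha subunit, was scarce, at 1.304, 0.631 and 0.503 FPKM in WT and at 2.66, 1.16 and 0.985 FPKM in Scd-1-/-. It was higher in Scd-1-/- in every pair, although the groups overlapped through WT replicate 1. Its log2 fold change was 0.99 ± 0.51 (SE), with an adjusted p of 0.572 without and 0.0414 with the block (edgeR quasi-likelihood, Benjamini-Hochberg), so that it passed in the paired fit and not without the block, on few reads (580 over the 6 libraries). Epas1 reached the minimum of 1 FPKM only through Scd-1-/-, with a mean of 0.813 in WT against 1.60 in Scd-1-/-, so this call is not read as support for a rise.

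**Figure D2:**
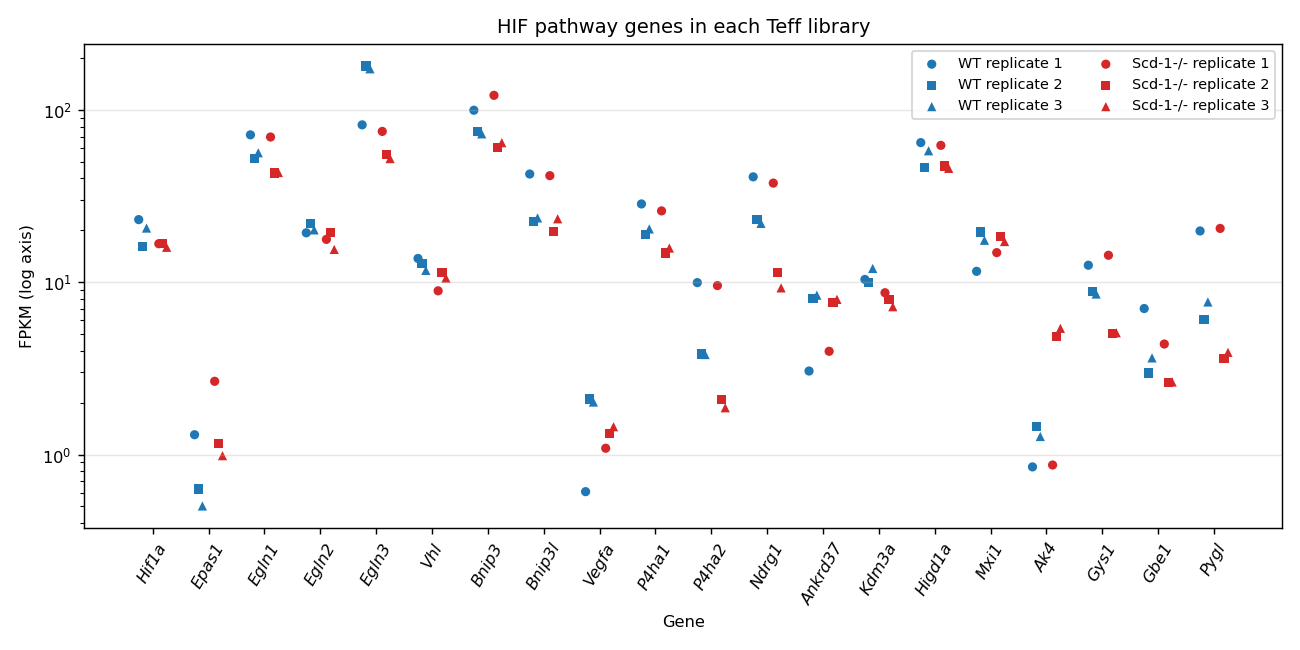
FPKM of the 20 HIF pathway genes in each of the 6 libraries, on a log axis, with WT in blue, Scd-1-/- in red and the replicate number by marker shape. Egln3 stands out by the WT replicates 2 and 3 at 180 and 173 FPKM, and Ak4 by the Scd-1-/- replicates 2 and 3 at 4.82 and 5.40 FPKM.

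Of the 20 HIF pathway genes, 15 had a log2 fold change below 0 and 5 above, with a median of -0.24. None passed an adjusted p of 0.05 by edgeR's quasi-likelihood test without the block, and at an unadjusted p under 0.05 there were 2 of the 20 lower and 1 higher, beside 4.68% and 5.42% of all genes. DESeq2 called 1, Egln3, as lower, where it called 1.09% of all genes lower and 1.67% higher. With the block, Epas1 alone passed, as higher, beside the 2.64% (higher) and 2.06% (lower) of all genes given above, and it entered the test only through the genotype in which it was higher. In all, at an unadjusted p under 0.05 with the block, 16 members were lower and 2 higher, beside 11.2% and 11.3% of all genes.

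Among the HIF targets, Ak4, a mitochondrial adenylate kinase, differed most in the other direction. It was at 0.848, 1.46 and 1.27 FPKM in WT and at 0.870, 4.82 and 5.40 FPKM in Scd-1-/-. Replicates 2 and 3 of Scd-1-/- were above every other library, and replicate 1 was at the WT level. The log2 fold change was 1.66 ± 0.60 (SE), with an adjusted p of 0.407 without and 0.0767 with the block (edgeR quasi-likelihood, Benjamini-Hochberg). The copy Ak3l2-ps, 99.6% identical to Ak4, took 23.05% of their joint counts, and with both summed, an alternative chosen after seeing the data, the log2 fold change was 0.99.

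Ndrg1, a stress-induced gene that HIF raises in many cells, was at 40.9, 23.2 and 21.9 FPKM in WT and at 37.6, 11.4 and 9.27 FPKM in Scd-1-/-. Replicate 1 was the highest library in each genotype, and the pair differences were -0.12, -1.01 and -1.17 (log2). The log2 fold change was -0.54 ± 0.53 (SE), with an adjusted p of 0.819 without and 0.0639 with the block (edgeR quasi-likelihood, Benjamini-Hochberg). Without WT replicate 1 it was -0.17 and without Scd-1-/- replicate 1 it was -1.46. Kdm3a, a histone demethylase, was at 10.4, 9.96 and 12.02 FPKM in WT and at 8.69, 7.93 and 7.21 FPKM in Scd-1-/-. The groups did not overlap and every pair was lower in Scd-1-/-, with a log2 fold change of -0.42 ± 0.13 (SE) and an adjusted p of 0.354 (edgeR quasi-likelihood, Benjamini-Hochberg), which was 0.0867 with the block.

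The collagen prolyl hydroxylase subunits P4ha1 and P4ha2 had log2 fold changes of -0.24 and -0.36. P4ha2 was at 9.94, 3.83 and 3.80 FPKM in WT and at 9.56, 2.09 and 1.87 FPKM in Scd-1-/-, so that number 1 was far above the others in both genotypes. The genes of glycogen metabolism, Gys1 (synthase), Gbe1 (branching enzyme) and Pygl (phosphorylase), had log2 fold changes of -0.27, -0.48 and -0.24. Pygl was at 19.8, 6.09 and 7.68 FPKM in WT and at 20.5, 3.62 and 3.92 FPKM in Scd-1-/-. The mitophagy receptors Bnip3 and Bnip3l, the angiogenic factor Vegfa, Ankrd37, the mitochondrial protein Higd1a and the Myc antagonist Mxi1 had log2 fold changes from -0.26 (Vegfa) to 0.08 (Mxi1), and the sign changed for each of these 6 under at least 1 alternative. P4ha2, Gbe1 and Pygl changed sign too, to 0.28, 0.00172 and 0.49 without WT replicate 1. Bnip3l shares reads with the near-identical Bnip3l-ps, which took 26.5% of their joint counts, and Gys1, Pfkp and Ndrg1 overlap other genes on the genome.

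The genotype difference was next compared pair by pair. The median log2 difference (Scd-1-/- minus WT) of the 38 members tested was -0.04 in pair 1, -0.42 in pair 2 and -0.31 in pair 3, beside medians of -0.01, 0.0005 and 0.004 for all genes. In pair 1, 25 members were lower in Scd-1-/-, and in pairs 2 and 3 there were 33 and 34. A total of 21 members (12 glycolytic, 9 HIF) were lower in all 3 pairs and 2 were higher, beside 22.8% and 22.1% of all genes. The 12 glycolytic enzymes included Hk1, Hk2, Pdk1, Pgam1 and Ldha, and the 2 higher members were Epas1 and Ak4.

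**Figure D3:**
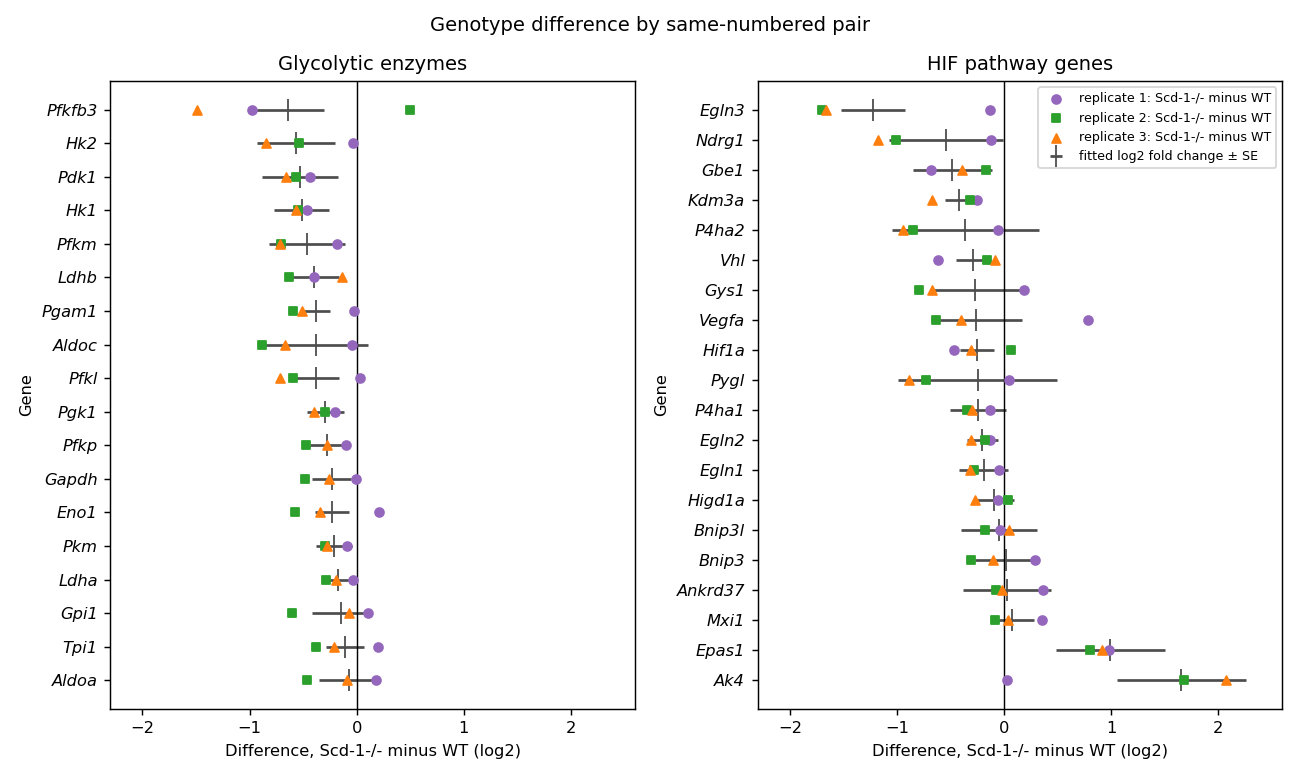
Difference between Scd-1-/- and WT (log2) for each tested member, with the fitted value ± SE (grey) and the 3 same-numbered pairs (coloured markers), glycolytic enzymes at left and HIF pathway genes at right. Pair 1 (purple circles) lies near 0 for most members, with a median of -0.04, while pairs 2 and 3 lie mostly left of it.

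In replicates 2 and 3 alone, 14 members fell and 1 rose at an adjusted p under 0.05 (edgeR quasi-likelihood, Benjamini-Hochberg), beside 6.07% and 6.53% of all genes. The 8 glycolytic enzymes that fell were Hk1, Hk2, Pfkl, Pfkm, Aldoc, Pgam1, Eno1 and Pdk1. The 6 HIF pathway genes that fell were Egln3, Ndrg1, P4ha2, Kdm3a, Gys1 and Pygl, and the gene that rose was Ak4. Past the thresholds of the study were Egln3 (-1.68), Ndrg1 (-1.09) and Ak4 (1.94) on the log2 scale, where 1.58% of all genes were lower and 2.25% higher. This comparison holds 2 libraries per genotype and leaves out the pair in which the members differed least, and whether the genotype difference itself differs between replicate 1 and replicates 2 and 3 was not tested, because there is 1 pair with the number 1. Replicates 2 and 3 were also much alike, with a chi-square per degree of freedom over genes of 18.3 in WT and 14.9 in Scd-1-/-. Against replicate 1 of the same genotype it was 66.0 to 80.4. The p-values of this comparison thus measure only the spread between similar libraries and can overstate the evidence.

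More members were called for the replicate number than for genotype. By an F test of the number in the fit with genotype, 17 of 38 members (6 of 18 glycolytic, 11 of 20 HIF) passed an adjusted p of 0.05 (edgeR quasi-likelihood, Benjamini-Hochberg), beside 15.9% of all genes. Of the 17, 15 were higher in replicate 1 of both genotypes: Hk1, Pfkm, Aldoa, Aldoc, Pdk1, Epas1, Egln1, Bnip3, Bnip3l, P4ha1, P4ha2, Ndrg1, Gys1, Gbe1 and Pygl. Hk2 and Ankrd37 were lower in it. Without Scd-1-/- replicate 1 the count was 12, and without each of the other libraries it was 16 or 17.

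Pygl, P4ha2 and Epas1 were at least 1 log2 unit above replicates 2 and 3 in replicate 1 of both genotypes, which 1.91% of all genes were. The excess was 1.57 in WT and 2.42 in Scd-1-/- for Pygl, 1.41 and 2.25 for P4ha2, and 1.13 and 1.25 for Epas1. Ankrd37, whose product carries ankyrin repeats, went the other way by -1.34 and -0.93, as Hk2 did by -1.33 and -0.68. For Egln3 the difference was -1.06 in WT and 0.49 in Scd-1-/-, of opposite sign. In all, both replicate 1 libraries were above the other 4 for 20 members and below them for 5, beside 23.3% and 21.4% of all genes.

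**Figure D4:**
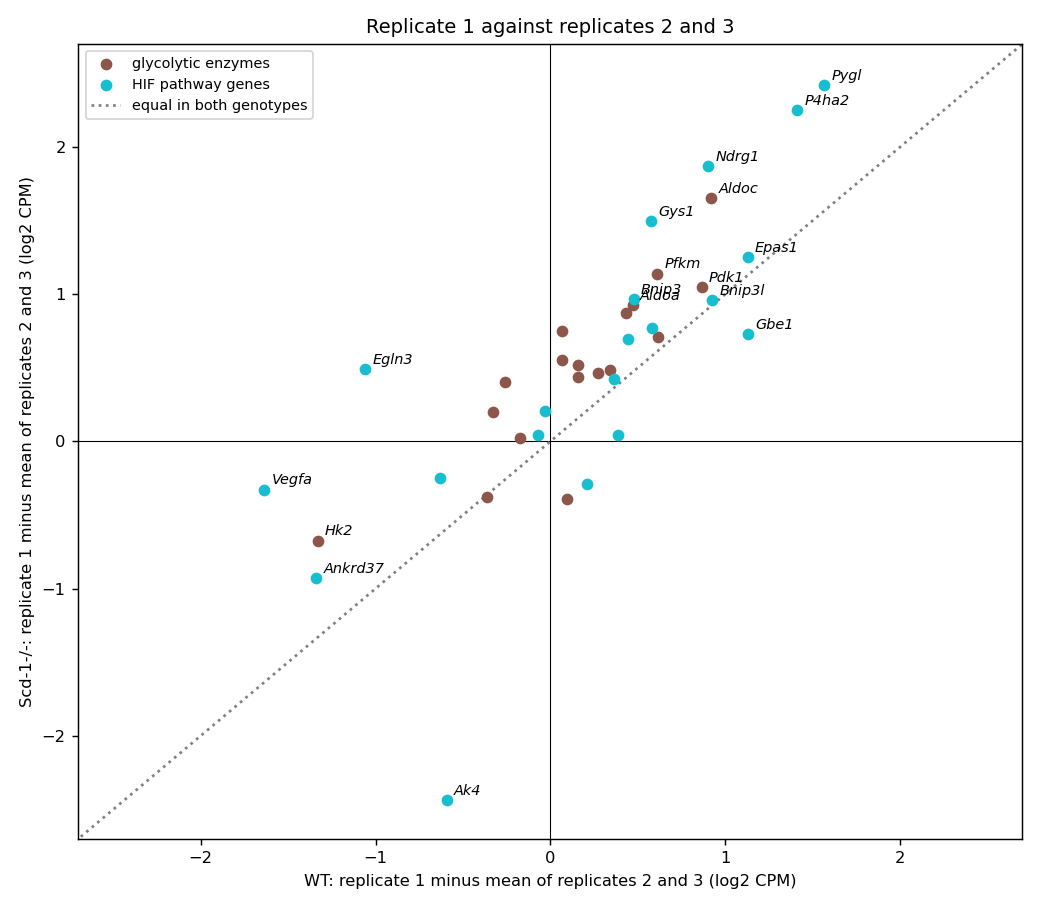
Replicate 1 minus the mean of replicates 2 and 3 (log2 CPM) in WT (horizontal) and in Scd-1-/- (vertical) for each tested member, glycolytic in brown and HIF in cyan, with a dotted line where both genotypes are equal. Pygl, P4ha2, Ndrg1 and Aldoc lie at the upper right, Hk2 and Ankrd37 at the lower left, and Egln3 and Ak4 away from the line.

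Where several genes code for related proteins (isozymes, enzyme subunits or, for Bnip3 and Bnip3l, receptors), the share of each in their summed FPKM was compared, which gave 13 shares in 9 sets. An exact permutation test (two-sided) of 3 against 3 libraries cannot go below p = 0.1, so none could pass. Egln3 made up 47.4, 70.7 and 69.3% of the Egln1, Egln2 and Egln3 sum in WT replicates 1, 2 and 3 and 46.2, 46.9 and 47.0% in Scd-1-/-. It was the only share whose groups did not overlap, with a difference of -15.8 percentage points (exact permutation p = 0.1, adjusted over the 13 shares 0.557). Hk2 made up 21.7, 49.5 and 53.9% of hexokinase Hk1 and Hk2 in WT and 27.0, 49.5 and 49.0% in Scd-1-/-, so that this share followed the replicate number and differed by 0.171 points between genotypes. Pfkl and Pfkp together supplied most of the phosphofructokinase FPKM, and Pfkm 7.45 to 11.8%. Aldoc was 3.40 to 6.5% of the aldolase sum, Ldhb at most 0.612% of lactate dehydrogenase and Eno2 at most 0.138% of the Eno1 and Eno2 sum.

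**Figure D5:**
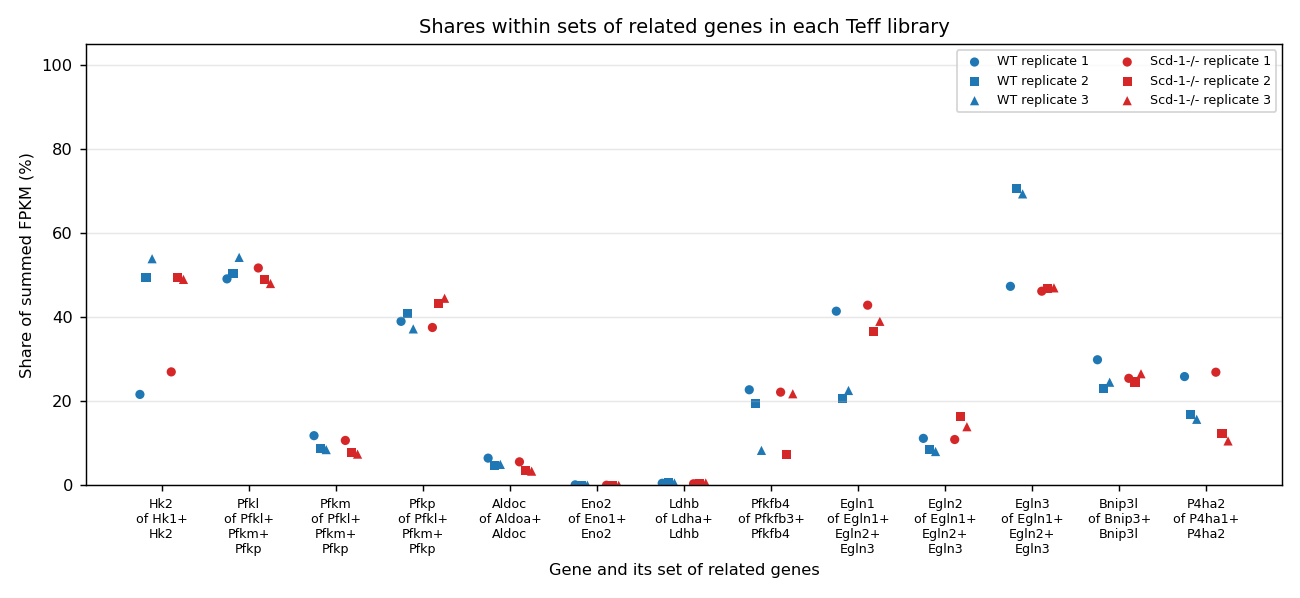
Share (%) of each gene in the summed FPKM of its set of related genes in each of the 6 libraries, with WT in blue, Scd-1-/- in red and the replicate number by marker shape. The Egln3 share is 70.7 and 69.3% in WT replicates 2 and 3 and 46.2 to 47.4% in the other 4 libraries, and the Hk2 share is lowest in replicate 1 of both genotypes.

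Genes around the 2 pathways gave few calls. None of 8 tested further glycolytic genes, 10 glucose and lactate transport genes, 13 genes of pyruvate entry, 10 of glycogen metabolism, 12 of the HIF machinery, 24 further HIF targets and 16 regulators of glycolysis passed an adjusted p of 0.05 by edgeR's quasi-likelihood test without the block. With the block, Slc2a6, a glucose transporter family member, and Irf4, a factor that sustains glycolysis in activated T cells, passed as lower, which is 2 of the 93 genes tested in the 7 lists (2.15%), near the 2.06% of all genes. Irf4 was at 38.8, 47.3 and 50.3 FPKM in WT and at 20.1, 30.9 and 26.6 FPKM in Scd-1-/-, with no overlap and a log2 fold change of -0.79 (adjusted p = 0.177 without and 0.00912 with the block, edgeR quasi-likelihood, Benjamini-Hochberg). Slc2a6 was at 0.992, 2.32 and 1.79 FPKM in WT and at 0.451, 0.697 and 0.417 FPKM in Scd-1-/-, with a log2 fold change of -1.68 (adjusted p = 0.174 without and 0.0174 with the block, by the same edgeR test). Slc2a6 reached the minimum of 1 FPKM only through WT, with a mean of 1.70 FPKM there and 0.522 FPKM in Scd-1-/-. In replicates 2 and 3 alone, 6 of the 10 transport genes fell, among them the main glucose transporters Slc2a1 (-0.65) and Slc2a3 (-1.07) and the lactate exporter Slc16a3 (-0.55), and none rose. Over all libraries, these 3, named after their values were seen, had log2 fold changes of -0.45, -0.59 and -0.23, with adjusted p of 0.643, 0.590 and 0.827 without the block and 0.224, 0.101 and 0.353 with it (edgeR quasi-likelihood, Benjamini-Hochberg). The median of the 10 transport genes was -0.25 over all libraries and -0.49 in replicates 2 and 3 alone. Of the 24 further HIF targets, 4 fell and 1 rose there, as did 2 and 0 of the 10 glycogen genes, 2 and 0 of the 16 regulators, 0 and 1 of the 12 genes of the HIF machinery, and none of the further glycolytic and pyruvate entry genes, beside 6.07% (lower) and 6.53% (higher) of all genes.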

How the data were processed

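RNA-seq of 3 WT and 3 Scd-1-/- Teff libraries was analysed from deposited gene tables with raw counts and FPKM, both made by the authors. Per the labels' processing notes, reads were checked with FastQC, aligned with HISAT2 to GRCm38 and assembled with StringTie 1.3.0. The deposited FPKM scale with total counts and carry no further factor. The labels name Trizol extraction and a VAHTS kit, the methods an RNeasy kit and a strand-specific TruSeq kit. Counts were tested with edgeR 4.0.16 (quasi-likelihood, TMM factors 0.986 to 1.03, R 4.3.3) over the 9627 genes that averaged 1 FPKM or more, with Benjamini-Hochberg adjustment, and the thresholds of the study (log2 fold change of at least 1, p under 0.001) were also applied. DESeq2 1.42.0 and limma 3.58.1 were alternatives. Replicate numbers were treated as pairs because every same-numbered correlation exceeded 0.1, although WT replicate 3 correlated with Scd-1-/- replicate 2 as well (r = 0.422). log2 CPM used a pseudocount of 0.5. Near-identical genes (at least 95% over 200 bases) were found with BLAST 2.17.0. Members and lists were chosen with earlier results of these data known. A few genes of the other lists were left out and are not reported here, and most others are given as counts only. Every member was named, and the rule for each other list took genes called with or without the block or past the thresholds of the study, and otherwise the 3 with the largest difference, which are left to the counts. Slc2a1, Slc2a3 and Slc16a3 were named after their values were seen. The labels do not say that libraries came from separate mice, so p-values measure the spread between these libraries.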

Additional observations from a re-analysis of the deposited data

How the results depend on the processing

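The median log2 fold change of the glycolytic enzymes stayed below 0 under every alternative, from -0.45 to -0.20, and that of the HIF pathway genes did so from -0.41 (without Scd-1-/- replicate 1) to -0.04 (without WT replicate 1), with -0.08 and -0.10 without Scd-1-/- replicates 2 and 3. The number of glycolytic enzymes past an adjusted p of 0.05 went from 0 to 2 with the replicate block and 8 in replicates 2 and 3 alone. That of HIF pathway genes went from 0 to 1 with DESeq2, 1 with the replicate block, 7 in replicates 2 and 3 alone and 0 to 1 when single libraries were left out (Egln3 without WT replicate 1, Ak4 without Scd-1-/- replicate 1). Over the whole table, 71 genes passed the thresholds of the study, 148 with no FPKM minimum, 43 with a minimum of 5, 161 with DESeq2, 184 with the replicate block, 369 in replicates 2 and 3 alone and 25 to 163 without single libraries. The block changed no other call among the members than those of Hk1, Pdk1 and Epas1. Calls for the replicate number ranged from 12 to 19 members. The causes were not tested.

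Of the 38 members tested, 11 changed sign under an alternative. Bnip3 (0.02) was at -0.00516 with library totals alone, -0.0641 with limma at pseudocount 1, -0.0654 at 0.1, -0.0416 with the replicate block and -0.21 in replicates 2 and 3 alone. Ankrd37 was at -0.00117 with library totals alone and -0.0477 in replicates 2 and 3 alone, where Mxi1 was at -0.0262 and Trac at 0.0673. With single libraries left out, the log2 fold changes ran from -0.50 to 0.0418 for Gpi1, -0.45 to 0.10 for Aldoa, -0.38 to 0.19 for Bnip3, -0.44 to 0.33 for Bnip3l, -0.64 to 0.0131 for Vegfa, -1.56 to 0.28 for P4ha2, -0.30 to 0.28 for Ankrd37, -0.25 to 0.0341 for Higd1a, -0.11 to 0.24 for Mxi1, -0.78 to 0.00172 for Gbe1, -1.56 to 0.49 for Pygl and -0.15 to 0.12 for Trac. Of the 27 members that kept their sign with single libraries left out, 20 moved by over 1.5 times, among them Hk1 (-0.79 to -0.28), Pdk1 (-0.97 to -0.18), Aldoc (-1.16 to -0.00158), Ndrg1 (-1.46 to -0.17) and Epas1 (0.41 to 1.54), with both ends of these 5 set by leaving out a replicate 1 library, and Gys1 (-0.96 to -0.0168). For the shares, the Hk2 difference of 0.171 points was -0.263 from counts and -2.42 in replicates 2 and 3 alone, where that of Bnip3l was 1.78. Without single libraries the share differences ran from -9.85 to 7.59 points for Hk2, -1.68 to 1.75 for Bnip3l, -8.01 to 0.348 for P4ha2, -4.03 to 5.14 for Pfkfb4 and -2.08 to 0.0261 for Pfkm. Epas1 rested on 580 reads in all, and the smallest difference that this depth can show was not measured.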
